A study of Mus musculus with 47 samples.

Results

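The effect of a high-fat diet on hippocampal gene expression was examined in transgenic (TG) mice. RNA-seq counts of 6 TG mice on high-fat diet (TG_HFD) were compared with those of 6 TG mice on standard diet (TG_SD), which are 12 of the 47 libraries of the series. Genes were kept where the mean count over the 24 hippocampus libraries reached 50, which left 13272 of 31751 genes. TG mice were male, on a C57BL/6 background and homozygous for a human transgene driven by the neuron-specific Thy1 promoter. Wild-type mice (WT) were bred as a parallel colony from the same outcross. Both diets were given from weaning until the mice were 12 months old, and poly(A) RNA was sequenced from 1 end. The 12 WT hippocampus libraries (WT_SD and WT_HFD, 6 each) and the 12 TG brainstem libraries entered as comparisons only.

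The libraries were checked first. Endogenous *Thy1*, whose promoter drives the transgene, showed no difference between diets beyond its error (log2 fold change of 0.022 ± 0.029 SE). All 14 listed markers of dentate granule neurons, all 9 of CA1 and 11 of 13 of CA3 and CA2 were above the count threshold. Total counts were 13834438 to 16124990 in TG_SD and 12923697 to 16497750 in TG_HFD. None of 10 library measures, among them total count and the slope of counts on GC content, differed between the diets (exact permutation test, all p of at least 0.262, Benjamini-Hochberg adjusted p = 0.926). The 10 included the 4 surrogate variables, which are covariates of the main fit estimated from the counts. They were estimated with the groups in the model, so their lack of a difference is not an independent check.

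No gene was differentially expressed between TG_HFD and TG_SD. In edgeR's quasi-likelihood test a differentially expressed gene (DEG) needed a p of 0.05 or less after Benjamini-Hochberg adjustment and a log2 fold change of 0.3 or more in either direction, and 0 of 13272 genes met both (0%). The smallest adjusted p was 0.0972. At an unadjusted p up to 0.05 there were 424 genes higher in TG_HFD (3.19%) and 516 lower (3.89%), 940 in all where 664 would be expected by chance. An excess over 664 depended on the fit, since 0, 1 and 2 surrogate variables gave 369, 541 and 610 genes, each below it. With GC content adjusted for and no surrogate variables the split was 263 higher and 198 lower, and DESeq2 without surrogate variables, added after the data were seen, gave 207 and 160. The values below therefore describe single genes and lists at an unadjusted threshold, and no difference between the diets passed correction over all genes. DESeq2 with the same surrogate variables called 2 DEGs, *Ldb2* and *Rxfp1*, and 732 genes at an unadjusted p up to 0.05.

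Some genes of cholesterol synthesis and transport, led by *Lss*, *Idi1* and *Insig1*, were lower in TG_HFD at the unadjusted threshold. Adult brain cells make their own cholesterol, because lipoprotein cholesterol does not readily cross the blood-brain barrier. The transcription factor encoded by *Srebf2* drives the genes of the pathway when sterols in the cell are scarce, and INSIG proteins hold it back when sterols are plentiful. Of 36 tested genes of cholesterol synthesis and transport, 10 were lower at an unadjusted p up to 0.05 (27.8%, against 3.89% of all genes) and 1 was higher. The median log2 fold change was -0.067, against -0.0022 over all genes, and 5 of the 36 genes had a positive value. No gene of this list passed correction over all genes. Without surrogate variables 4 of the 36 were lower and 0 higher, against 185 lower and 184 higher of all 13272 genes in that fit. Across 12 fits that each left out 1 TG library, 5 to 11 genes of the list were lower and the median lay between -0.079 and -0.054. Across 16 other fits 3 to 10 were lower and the median lay between -0.069 and -0.050.

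Lanosterol synthase (*Lss*, chromosome 10), which closes the sterol ring, had the lowest p of the list. Its normalized count ran from 342 to 407 with a median of 371 in TG_SD, and from 285 to 347 with a median of 329 in TG_HFD. The ranges overlapped by little, with 4 of 6 TG_HFD mice below every TG_SD mouse. The log2 fold change was -0.21 ± 0.058 SE (unadjusted p = 0.0012, adjusted p = 0.3, edgeR). *Idi1* (chromosome 13), an isomerase of the isoprenoid units, had 671 to 844 normalized counts (median 778) in TG_SD and 548 to 762 (median 670) in TG_HFD. Here too 4 of 6 TG_HFD mice were below all TG_SD mice (log2 fold change -0.20 ± 0.057 SE, unadjusted p = 0.00164, adjusted p = 0.304, edgeR). *Insig1*, the sterol sensor partner that is itself a target of the pathway's transcription factor, had 699 to 905 (median 831) in TG_SD and 645 to 763 (median 703) in TG_HFD. Its groups overlapped more, with 3 mice of TG_HFD below the TG_SD range (log2 fold change -0.19 ± 0.063 SE, unadjusted p = 0.0057, adjusted p = 0.491, edgeR). *Lss*, *Idi1* and *Insig1* kept an unadjusted p up to 0.05 in 28 of 28 alternative fits, which are 16 other settings and 12 fits that each left out 1 TG library.

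The 3 promoters printed here belong to *Lss* and *Idi1*, whose p values were the lowest of the list, and *Hmgcs1*, because its window holds both motifs searched. Each run is the 250 bases before the transcription start in RefSeq (GRCm38.p6), a build used here for sequence only, since the counts were made on a later one. Capitals mark a CCAAT box (CCAAT, or ATTGG on the other strand) and a sterol regulatory element core (TCACCCCA, or TGGGGTGA on the other strand). 
*Lss*, chr10:76531355-76531604, + strand: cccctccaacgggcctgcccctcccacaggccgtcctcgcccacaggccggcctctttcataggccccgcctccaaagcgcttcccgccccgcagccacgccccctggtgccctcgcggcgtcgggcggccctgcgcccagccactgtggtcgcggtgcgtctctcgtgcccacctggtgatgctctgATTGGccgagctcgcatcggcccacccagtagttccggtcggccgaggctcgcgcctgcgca
*Idi1*, chr13:8885356-8885605, + strand: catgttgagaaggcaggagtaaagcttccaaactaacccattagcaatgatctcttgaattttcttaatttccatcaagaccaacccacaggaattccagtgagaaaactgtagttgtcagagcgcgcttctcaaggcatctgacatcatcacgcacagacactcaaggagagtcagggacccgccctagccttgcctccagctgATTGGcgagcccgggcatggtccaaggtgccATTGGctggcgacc
*Hmgcs1*, chr13:119690101-119690350, + strand: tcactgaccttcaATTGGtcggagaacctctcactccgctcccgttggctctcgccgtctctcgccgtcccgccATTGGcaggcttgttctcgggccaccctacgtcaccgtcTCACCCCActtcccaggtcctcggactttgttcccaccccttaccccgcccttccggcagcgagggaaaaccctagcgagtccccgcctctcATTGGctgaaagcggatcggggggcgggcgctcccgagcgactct
*Lss* held 1 CCAAT box, *Idi1* held 2 and *Hmgcs1* held 3 together with 1 sterol regulatory element core. Of the 9300 promoters that matched a tested gene, 36.2% held a CCAAT box and 1.25% held the sterol element core in a window of the same length. These are shares of the promoters matched, not of all 13272 tested genes, and no share is given for the cholesterol list, of which 26 of 36 genes had an entry.

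Other enzymes along the same route were lower by smaller amounts. *Msmo1*, the sterol C4-methyl oxidase, had a median of 1259 normalized counts in TG_SD and 1148 in TG_HFD (log2 fold change -0.16, unadjusted p = 0.00932). *Sqle*, squalene epoxidase, had medians of 778 and 701, with 4 TG_HFD mice below the TG_SD range (log2 fold change -0.15, unadjusted p = 0.0129). *Hmgcs1*, which makes the precursor of mevalonate, had medians of 2607 and 2434 (log2 fold change -0.11, unadjusted p = 0.028), and *Fdft1*, squalene synthase, had 1012 and 942.8 (log2 fold change -0.11, unadjusted p = 0.0324). The groups of *Hmgcs1* and *Fdft1* overlapped over most of their range. *Mvd*, the decarboxylase of the mevalonate branch, had a log2 fold change of -0.20 (unadjusted p = 0.0349). In lipoprotein handling, the endocytic receptor *Lrp1* (log2 fold change -0.15, unadjusted p = 0.027) and the plasma cholesterol esterifying enzyme *Lcat* (log2 fold change -0.17, unadjusted p = 0.0322) were lower, while the sterol exporter *Abcg1* was the gene that was higher, with a median of 1000 in TG_SD and 1056 in TG_HFD (log2 fold change 0.084, unadjusted p = 0.0364). These smaller differences depended more on the fit, and *Hmgcs1*, *Mvd* and *Lrp1* had an unadjusted p up to 0.05 in 13 of 28 alternatives. *Srebf2* (log2 fold change -0.019, unadjusted p = 0.603) and the lipoprotein gene *Apoe* (-0.011, unadjusted p = 0.721) did not pass the unadjusted threshold.

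**Figure D1:**
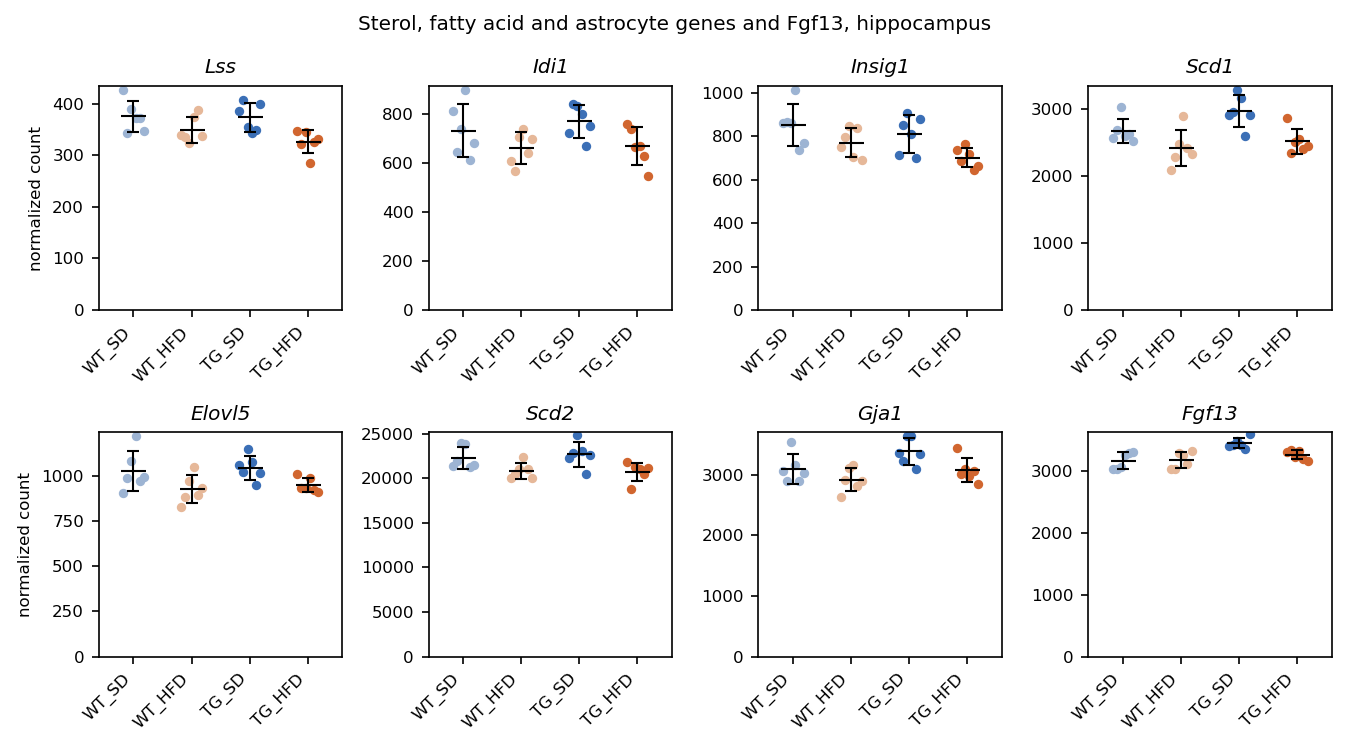
Normalized counts of 8 genes by mouse (y axis) in WT_SD, WT_HFD, TG_SD and TG_HFD (x axis). Each point is 1 mouse, and bars give the mean and SD of 6 mice. *Scd1* in TG_HFD lies between 2341 and 2866 and in TG_SD between 2599 and 3283, and *Fgf13* is the gene of the 8 whose TG groups do not overlap.

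Some genes of fatty acid synthesis and desaturation, led by *Scd1*, were also lower at that threshold. These enzymes build long-chain fatty acids and introduce their double bonds, and they are targets of *Srebf1*. Of 31 tested genes 7 were lower at an unadjusted p up to 0.05 (22.6%, against 3.89% of all genes) and 1 was higher, with a median log2 fold change of -0.042 and a positive value in 11 genes. No gene of the list passed correction over all genes. Without surrogate variables 4 were lower and 0 higher, against 185 and 184 of all 13272 genes. Leaving out 1 TG library at a time gave 6 to 11 lower genes with a median between -0.042 and -0.014.

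Stearoyl-CoA desaturase 1 (*Scd1*, chromosome 19), which makes monounsaturated fatty acids, had the lowest p of all lipid genes listed. It was counted 2599 to 3283 times (median 2932) in TG_SD and 2341 to 2866 times (median 2473) in TG_HFD, normalized. In TG_HFD 5 of 6 mice were below every TG_SD mouse (log2 fold change -0.23 ± 0.050 SE, unadjusted p = 5.81e-05, adjusted p = 0.149, edgeR). *Scd2*, the desaturase that predominates in brain, had 20490 to 24820 (median 22720) in TG_SD and 18820 to 21790 (median 21050) in TG_HFD, and its groups overlapped more (log2 fold change -0.12 ± 0.034 SE, unadjusted p = 0.002). The elongase *Elovl5* had 951 to 1148 (median 1042) in TG_SD and 911 to 1009 (median 935) in TG_HFD, with 4 mice below the TG_SD range (log2 fold change -0.12 ± 0.035 SE, unadjusted p = 0.00165). *Scd1*, *Scd2* and *Elovl5* had an unadjusted p up to 0.05 in 28 of 28 alternatives. Fatty acid synthase *Fasn* (log2 fold change -0.11, unadjusted p = 0.00505), acetyl-CoA carboxylase *Acaca* (-0.093, unadjusted p = 0.00965), the acyltransferase *Gpam* (-0.11, unadjusted p = 0.0155) and the desaturase *Fads2* (-0.093, unadjusted p = 0.0171) were lower by less. The enoyl reductase *Tecr*, which completes each elongation cycle, was higher (log2 fold change 0.082, unadjusted p = 0.012). Genes of fatty acid oxidation and PPAR targets had 1 higher (2.78%, against 3.19% of all genes) and 3 lower (8.33%, against 3.89%) of 36. The lipid droplet coat gene *Plin2* was the higher member (log2 fold change 0.26, unadjusted p = 0.0138).

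**Figure D2:**
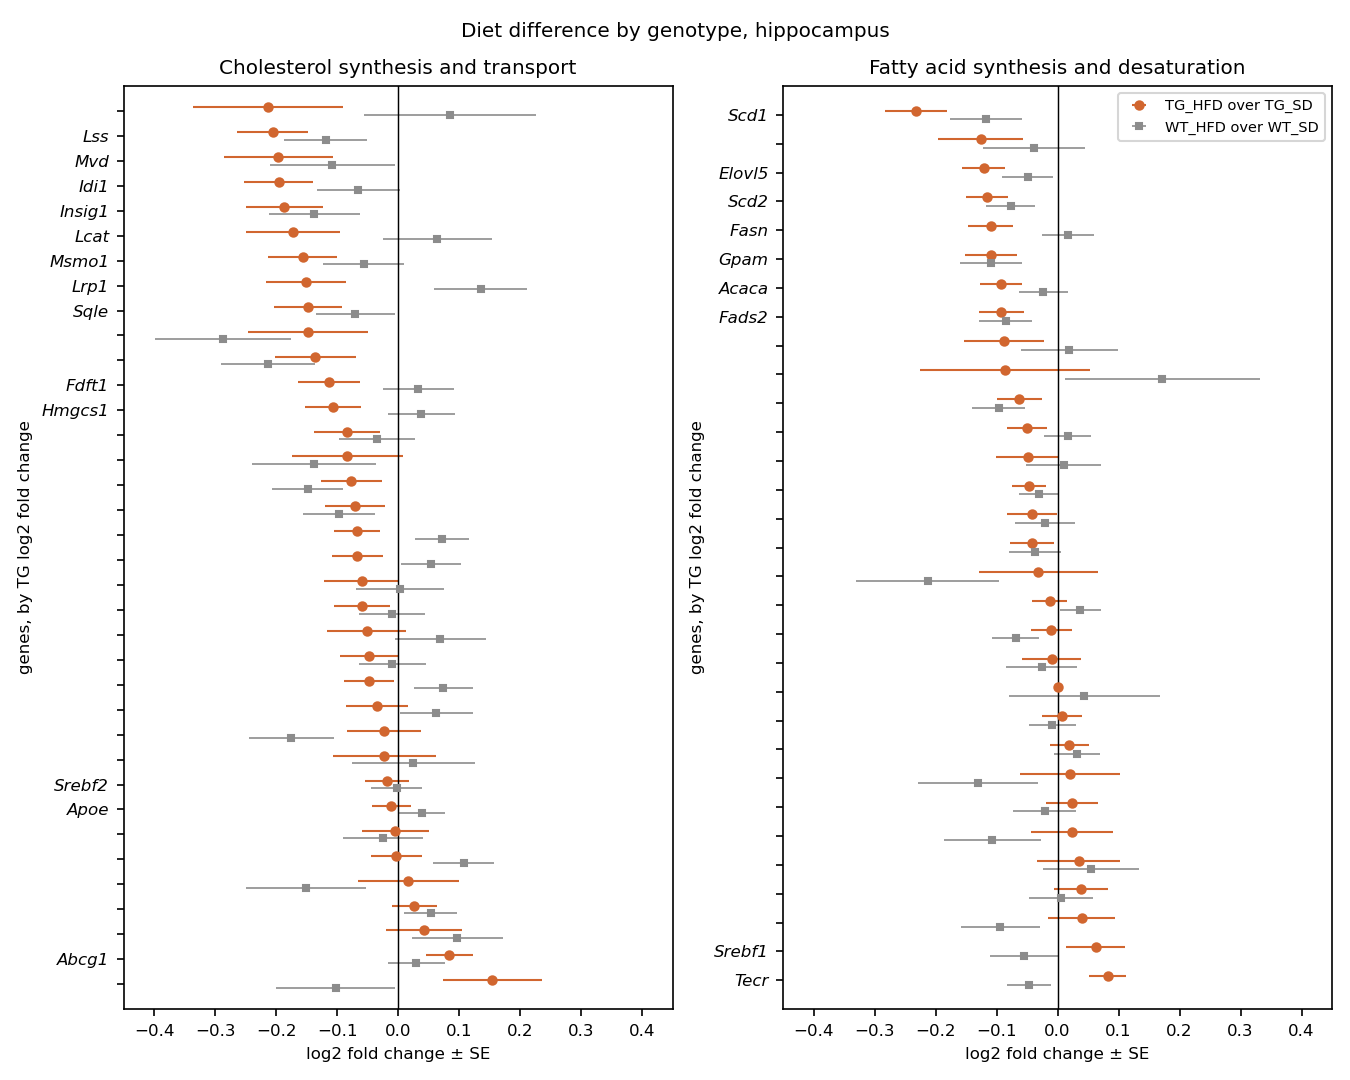
Log2 fold change of HFD over SD (x axis) for each tested gene of cholesterol synthesis and transport and of fatty acid synthesis and desaturation (y axis, genes named in the text labelled), in TG and in WT hippocampus. Points are edgeR estimates and bars their SE, which is not drawn for a value near 0 with a p over 0.99. In TG 5 of 36 and 11 of 31 genes lie above 0.

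The same lists were read in WT hippocampus and in TG brainstem, where no library is shared with the TG hippocampus comparison. In WT, 511 genes were higher in WT_HFD (3.85% of those tested), 340 were lower (2.56%) and 0 were DEGs (0%). How the genotypes compared in number depended on the fit. With 0, 1 and 2 surrogate variables 1213, 1736 and 1906 genes passed the unadjusted threshold in WT, against 369, 541 and 610 in TG. With 3 there were 830 in WT and 833 in TG. Of the cholesterol list 4 of 36 were lower and 1 higher in WT, with a median of -0.0060, and of the fatty acid list 2 of 31 were lower and 0 higher, with a median of -0.030. For the interaction of genotype and diet 307 genes were positive (2.31%), 487 negative (3.67%) and 0 DEGs (0%). It was negative at an unadjusted p up to 0.05 for 2 of the 36 cholesterol genes, to be read against 3.67% of all genes, and positive for 0. *Lrp1* was among these 2, with a log2 fold change of 0.14 in WT (interaction unadjusted p = 0.0091, edgeR). No interaction passed correction over all genes (smallest adjusted p = 0.131, edgeR), so a difference between the genotypes was not shown for any gene of the list. *Lss* had a log2 fold change of -0.12 in WT (unadjusted p = 0.0903) and *Scd1* of -0.12 (unadjusted p = 0.0564), and neither differed between genotypes at the unadjusted threshold (interaction unadjusted p = 0.35 and unadjusted p = 0.16, edgeR).

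In TG brainstem 463 genes were higher in TG_HFD (3.47%), 459 were lower (3.44%) and 1 was a DEG (0.0075%). There 6 of 36 cholesterol genes were lower and 2 higher (median -0.033), and 7 of 31 fatty acid genes were lower and 1 higher (median -0.061). *Idi1* had a log2 fold change of -0.19 in brainstem (unadjusted p = 0.000149), *Hmgcs1* of -0.11 (unadjusted p = 0.0147), *Scd2* of -0.13 (unadjusted p = 0.000237), *Elovl5* of -0.14 (unadjusted p = 0.00129) and *Scd1* of -0.13 (unadjusted p = 0.014). *Lss* had -0.06 in brainstem and did not pass that threshold (unadjusted p = 0.399, edgeR). The study describes RNA of both regions as taken from 6 animals in each group, but the labels do not tie a library to a mouse. The brainstem values were therefore not taken as independent of the hippocampus values.

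Markers of astrocytes, the glia that supply sterols and take up glutamate, were read beside the lipid genes. Of 19 tested markers 6 were lower at an unadjusted p up to 0.05 (31.6%, against 3.89% of all genes) and 0 were higher, with a median log2 fold change of -0.057 and a positive value in 5. In bulk tissue fewer cells of a type and less RNA per cell cannot be told apart. The gap junction gene *Gja1* had 3099 to 3647 normalized counts (median 3348) in TG_SD and 2854 to 3436 (median 3040) in TG_HFD, with 5 TG_HFD mice below every TG_SD mouse (log2 fold change -0.13 ± 0.037 SE, unadjusted p = 0.00104, adjusted p = 0.3, edgeR). The glutamate transporter *Slc1a2*, the filament gene *Gfap*, the folate enzyme *Aldh1l1*, the bicarbonate transporter *Slc4a4* and the water channel *Aqp4* had log2 fold changes between -0.12 and -0.11 and unadjusted p between 0.00821 and 0.0346. The summed level of the astrocyte list was 7203 to 8682 CPM in TG_SD and 7007 to 8688 CPM in TG_HFD, so the groups overlapped, and its log2 ratio was -0.078. Without surrogate variables 1 of the 19 was lower, against 185 of all 13272 genes. In WT 1 astrocyte marker was higher and 0 lower, to be read against 3.85% and 2.56% of all genes. The interaction was negative at the unadjusted threshold for 3 of 19, against 3.67% of all genes, and none passed correction. The part of astrocyte RNA in the lipid gene values was not tested.

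Markers of the other cells that the tissue could hold were read in the same way. Of 22 endothelial and blood-brain barrier genes 3 were lower (13.6%, against 3.89% of all genes) and 0 higher. These 3 were the drug efflux pump *Abcb1a* (log2 fold change -0.13), the membrane gene *Itm2a* (-0.15) and the tight junction gene *Ocln* (-0.16). Without surrogate variables 1 of the 22 was lower, against 185 of all 13272 genes. Of 19 oligodendrocyte and myelin genes 0 passed in either direction, and of 21 microglial genes 1 was higher (4.76%, against 3.19% of all genes) and 0 lower. Of 22 ependymal and cilia genes 3 were above the count threshold and 1 of these was lower (33.3%, against 3.89%), the cilia regulator *Foxj1* (-0.32, unadjusted p = 0.0342). Choroid plexus markers were low in both groups, with 4 of 15 above the count threshold and a summed level of 225 to 363 CPM in TG_SD and 197 to 356 CPM in TG_HFD. Of these 4, the chloride channel gene *Clic6* was lower, with 49.6 to 94.3 normalized counts (median 76.8) in TG_SD and 28.5 to 61.1 (median 47.4) in TG_HFD (log2 fold change -0.71 ± 0.235 SE, unadjusted p = 0.00488). *Ttr*, the main secreted protein of the plexus, had a median of 753 in TG_SD and 450.2 in TG_HFD (log2 fold change -0.51 ± 0.442 SE, unadjusted p = 0.26). Its TG_HFD values ran from 363 to 1833, since replicate 5 was above all TG_SD mice while the other 5 TG_HFD mice were below them.

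Haemoglobin genes, a sign of residual blood, went the other way. Of 6 erythrocyte genes 4 were higher (66.7%, against 3.19% of all genes) and 0 lower at an unadjusted p up to 0.05. *Hbb-bt* had 622 to 1165 normalized counts (median 974) in TG_SD and 912 to 1553 (median 1219) in TG_HFD (log2 fold change 0.43 ± 0.168 SE, unadjusted p = 0.0154), with 4 TG_HFD mice above the TG_SD range. *Hbb-bs*, *Hba-a1* and *Hba-a2* had log2 fold changes between 0.41 and 0.42, and these copies are near-identical within the alpha and the beta genes, so how reads were divided among them is uncertain. None of the 6 passed without surrogate variables, against 184 higher and 185 lower of all 13272 genes.

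Some genes of glutamate receptors and their partners, which carry excitatory transmission, were lower at the unadjusted threshold. Of 37 tested genes for AMPA, NMDA and kainate receptors, their auxiliary subunits and clustering proteins, 8 were lower (21.6%, against 3.89% of all genes) and 2 higher (5.41%, against 3.19%), with a median log2 fold change of -0.021. Without surrogate variables 2 were lower and 1 higher, against 185 and 184 of all 13272 genes. *Shisa6*, an AMPA receptor auxiliary protein, had a log2 fold change of -0.14 ± 0.038 SE (unadjusted p = 0.000791), although its normalized counts in TG_HFD (2105 to 2439, median 2165) lay within the TG_SD range (1913 to 2870, median 2449). The AMPA receptor partners *Cnih2* (-0.10, unadjusted p = 0.00193) and *Cacng5* (-0.34, unadjusted p = 0.00342) were lower as well. *Cacng5* had 130 to 191 normalized counts (median 174) in TG_SD and 109 to 171 (median 132) in TG_HFD, with 3 TG_HFD mice below all TG_SD mice. The NMDA receptor subunit *Grin2b* (-0.15), the kainate receptor partner *Neto1* (-0.10) and the pentraxins *Nptx1* (-0.08) and *Nptxr* (-0.08) had unadjusted p between 0.0128 and 0.023. The kainate receptor subunit *Grik1* (0.18, unadjusted p = 0.0247) and the NMDA receptor subunit *Grin3a* (0.090, unadjusted p = 0.0446) were the higher members.

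*Grip2*, a scaffold that anchors AMPA receptors, differed in direction between the genotypes at the unadjusted threshold. It had 189 to 242 normalized counts (median 206) in TG_SD and 124 to 231 (median 157) in TG_HFD, with 4 TG_HFD mice below every TG_SD mouse. The log2 fold change was -0.31 ± 0.136 SE in TG (unadjusted p = 0.0275) and 0.75 in WT (unadjusted p = 5.33e-05). The interaction had an unadjusted p of 2.43e-05 and an adjusted p of 0.131 (edgeR), so it did not pass correction in this test. The study, which used DESeq2, reported a significant interaction for *Grip2* in hippocampus. *Cntn3*, *Zfp932* and *Nab2*, which the study also names from hippocampus, had unadjusted p between 0.282 and 0.904 for diet in TG. Genes that its discussion describes as not rising in TG under high-fat diet, such as *Ndufa2* and *Uchl1*, are not given singly here.

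Genes that respond to hormones and to neuronal activity gave few differences. Of 26 targets of the glucocorticoid receptor 3 were lower (11.5%, against 3.89% of all genes) and 0 higher, with a median of -0.053. These 3 were the transcription factor *Klf9* (log2 fold change -0.10 ± 0.028 SE, unadjusted p = 0.000865), the actin-binding protein gene *Fam107a* (-0.18, unadjusted p = 0.0074) and the small GTPase *Rasl11a* (-0.28, unadjusted p = 0.0274). Without surrogate variables 0 of the 26 were lower, against 185 of all 13272 genes. For *Fam107a* 4 of 6 TG_HFD mice were below the TG_SD range (4766 to 6442, median 5172, against 4203 to 6037, median 4405), whereas for *Klf9* none was. Of 32 immediate early genes 3 were lower (9.38%, against 3.89% of all genes) and 2 higher (6.25%, against 3.19%). Cyclooxygenase *Ptgs2* (-0.21, unadjusted p = 0.00435) and the pentraxin *Nptx2* (-0.19, unadjusted p = 0.0137) were among the lower. The higher were the nuclear receptor *Nr4a2* (0.18, unadjusted p = 0.0117) and the AP-1 member *Fosl2* (0.12, unadjusted p = 0.0191). *Nptx2* had a log2 fold change of 0.19 in WT, and its interaction had an unadjusted p of 0.00172 (adjusted p over 0.05, edgeR). Of 49 heat shock proteins and chaperones 0 were higher and 0 lower.

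**Figure D3:**
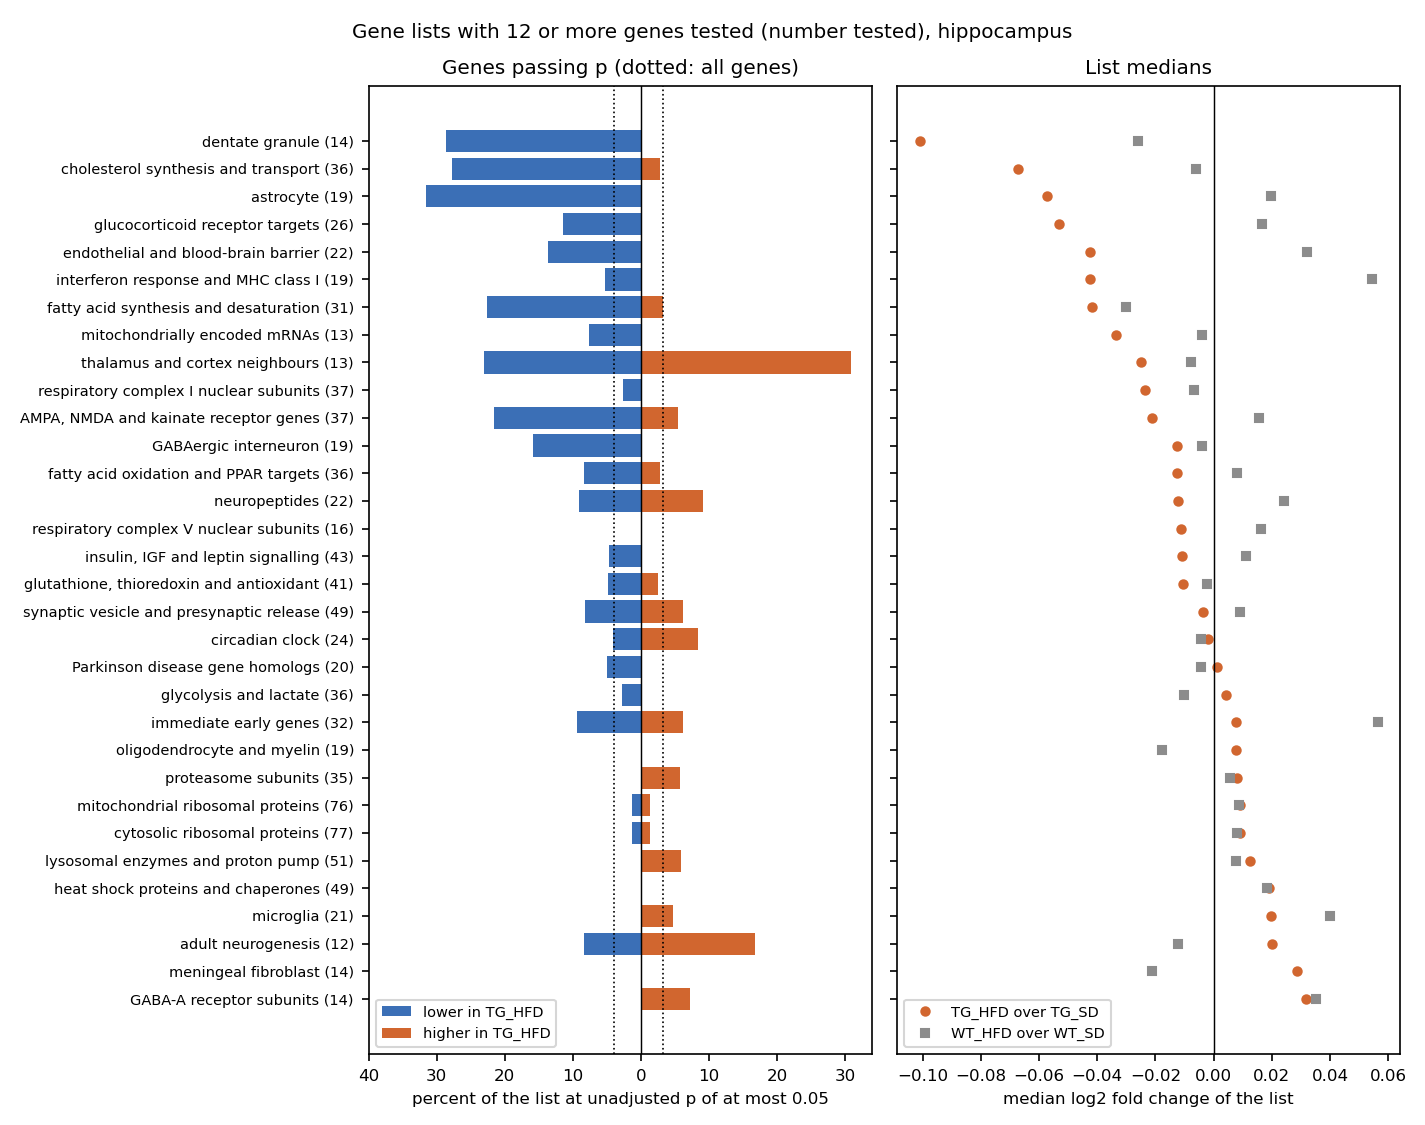
Left, the percent of tested genes of each list with at least 12 tested that were lower or higher in TG_HFD at an unadjusted p up to 0.05 (x axis), with all genes as dotted lines at 3.89% and 3.19%. Right, the median log2 fold change of HFD over SD (x axis) of the same lists in TG and in WT. The astrocyte list has the largest share of lower genes in TG at 31.6%.

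Among the higher genes of low p, *Slc17a6*, *Ccn2* and *Fezf2* were on the list of thalamus and cortex markers. *Rxfp1*, *Cbln2*, *Nxph3* and *Vwc2l* were not on it and were placed beside them after their values were seen. Of these 7 genes only *Slc17a6* and *Rxfp1* had a lower p than *Rasgrp2*, *Dusp10* and *Cep135*, which are given further below. *Slc17a6*, the vesicular glutamate transporter of thalamic and subicular neurons, had 57.1 to 178 normalized counts (median 89.0) in TG_SD and 102 to 223 (median 166) in TG_HFD, with 3 TG_HFD mice above the TG_SD range (log2 fold change 0.72 ± 0.158 SE, unadjusted p = 7.68e-05, adjusted p = 0.149, edgeR). The relaxin receptor *Rxfp1* had 25.7 to 84.2 (median 56.6) in TG_SD and 67.6 to 109 (median 92.2) in TG_HFD (log2 fold change 0.72 ± 0.163 SE, unadjusted p = 9.85e-05, adjusted p = 0.164, edgeR). *Ccn2*, a matricellular protein gene of the deepest cortical layer, had medians of 53.1 and 73.8 (log2 fold change 0.63, unadjusted p = 0.00112). The synaptic organizer *Cbln2* (0.43), the neurexin ligand *Nxph3* (0.44), the secreted factor *Vwc2l* (0.59) and the deep-layer transcription factor *Fezf2* (0.23) had unadjusted p between 0.00115 and 0.00248. Of 13 tested markers of thalamus and cortex, 4 were higher (30.8%, against 3.19% of all genes), namely *Slc17a6*, *Ccn2*, *Fezf2* and *Nr4a2*. The 3 lower ones (23.1%, against 3.89%) were *Rora*, *Ramp3* and *Plekhg1*, and the median of the list was -0.025. The summed level of that list was 203 to 265 CPM in TG_SD and 227 to 260 CPM in TG_HFD, so the groups overlapped fully.

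*Ldb2*, a LIM domain binding cofactor of transcription factors, had the lowest p of all genes and is named here after its values were seen, since its log2 fold change was just under 0.3. It had 380 to 489 normalized counts (median 431) in TG_SD and 488 to 598 (median 547) in TG_HFD. Of the TG_HFD mice 5 were above every TG_SD mouse (log2 fold change 0.2993 ± 0.057 SE, unadjusted p = 9.3e-06, adjusted p = 0.0972, edgeR). In WT the log2 fold change was 0.03 (unadjusted p = 0.661), and the interaction had an unadjusted p of 0.0052. *Ldb2* was a DEG under DESeq2 (log2 fold change 0.3035, adjusted p = 0.0104) and in a fit of the TG groups alone (0.3147, adjusted p = 0.019, edgeR).

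The order of the libraries was read over 8 genes chosen after their values were seen. Over *Slc17a6*, *Rxfp1*, *Ccn2*, *Vwc2l*, *Nxph3*, *Cbln2*, *Fezf2* and *Ldb2*, TG_HFD replicate 6 had the lowest value of its group for 7, while the highest value was spread over 5 of the 6 replicates. In TG_SD replicate 3 had the highest value for 5 of the 8 and replicate 6 the lowest for 5. Without TG_HFD replicate 6 there were 3 DEGs, *Ldb2*, *Slc17a6* and *Fezf2*. That replicate had the lowest TG_HFD value of each, so leaving it out had to raise their fold changes. These calls are therefore no separate support. Of 14 markers of dentate granule neurons 4 were lower (28.6%, against 3.89% of all genes) and 0 higher, with a positive value in 2 and a median of -0.101. Without surrogate variables 2 were lower and 1 higher, against 185 and 184 of all 13272 genes. In the main fit the CA1 list had 0 higher and 1 lower of 9, and the CA3 and CA2 list had 1 higher and 1 lower of 11. The summed level of the dentate list was 701 to 1025 CPM in TG_SD and 796 to 875 CPM in TG_HFD. The part of these marker levels in the values of the 8 genes was not tested.

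**Figure D4:**
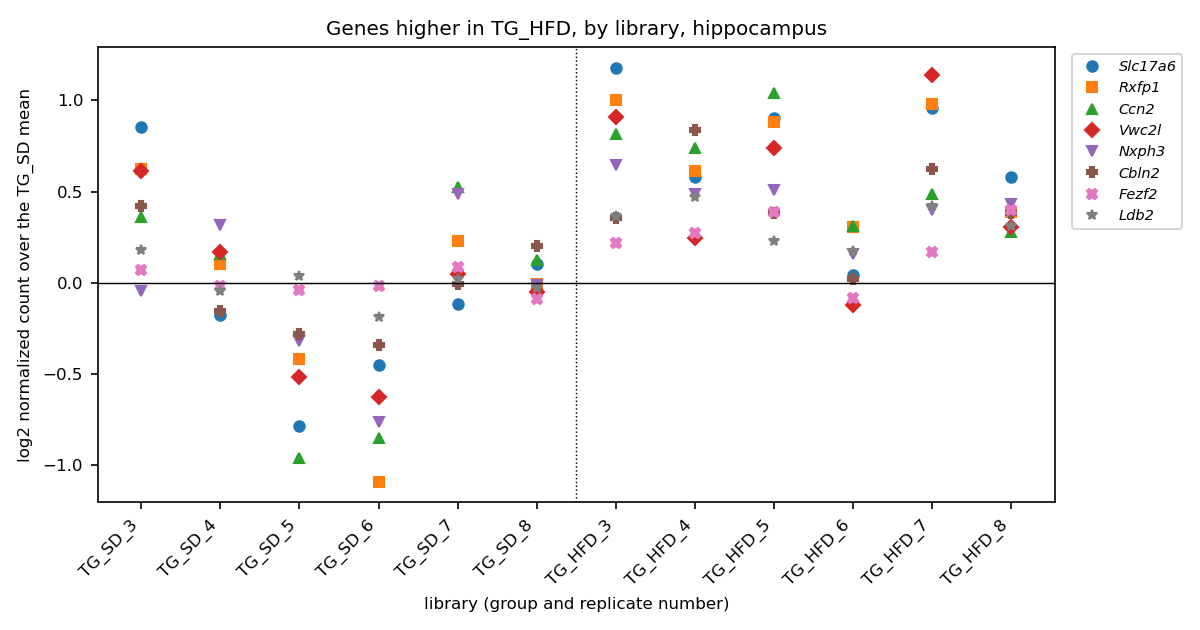
Log2 of the normalized count over the TG_SD mean (y axis) for 8 genes in each TG hippocampus library (x axis, by group and replicate). Each point is 1 gene in 1 library. TG_HFD replicate 6 has the lowest value of its group for 7 of the 8 genes.

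Further genes were higher in TG_HFD with a log2 fold change over 0.3. *Dusp10*, a phosphatase of stress-activated kinases, had 32.6 to 62.8 normalized counts (median 50.7) in TG_SD and 58.4 to 83.6 (median 74.0) in TG_HFD, with 5 of 6 TG_HFD mice above every TG_SD mouse (log2 fold change 0.53 ± 0.141 SE, unadjusted p = 0.000615). The centriole gene *Cep135* had 81.1 to 107 (median 89.9) in TG_SD and 107 to 127 (median 119) in TG_HFD, again with 5 mice above (0.36 ± 0.099 SE, unadjusted p = 0.000899). *Cep135* went the other way in WT, with a log2 fold change of -0.28 (interaction unadjusted p = 0.000269). *Rasgrp2*, an exchange factor for Rap GTPases, had medians of 78.1 and 105 (0.40, unadjusted p = 0.00034). *Gm6428*, a processed pseudogene that could share reads with its parent gene, had medians of 103.9 and 126 (0.30, unadjusted p = 0.00503).

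**Figure D5:**
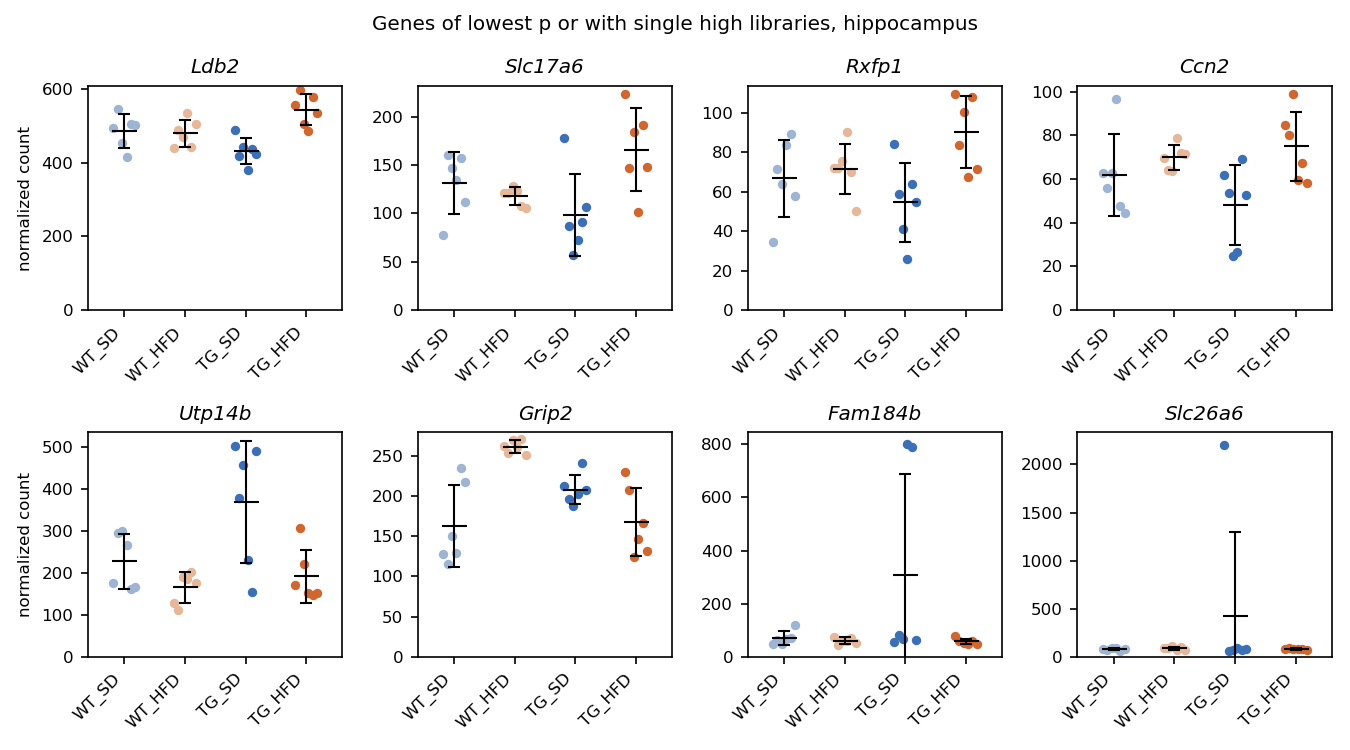
Normalized counts of 8 genes by mouse (y axis) in WT_SD, WT_HFD, TG_SD and TG_HFD (x axis). Points are mice and bars the mean and SD of 6. *Ldb2* in TG_HFD lies between 488 and 598, *Fam184b* in TG_SD has 2 mice at 791 and 802, and *Slc26a6* in TG_SD has 1 mouse at 2201.

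Among the lower genes, *Utp14b*, a retrogene for a protein of the small ribosomal subunit processome, had the lowest p. Its normalized count ran from 154 to 502 (median 417) in TG_SD and from 147 to 307 (median 161) in TG_HFD, and 3 TG_HFD mice were below all TG_SD mice. The log2 fold change was -0.98 ± 0.194 SE (unadjusted p = 1.79e-05, adjusted p = 0.0972, edgeR). It was -1.33 in TG brainstem (unadjusted p = 2.85e-05) and -0.14 in WT hippocampus (unadjusted p = 0.568, interaction unadjusted p = 0.0149). Of the other lower genes, the transcriptional coactivator *Eya4* had 72.4 to 97.0 (median 80.3) in TG_SD and 44.0 to 86.9 (median 61.2) in TG_HFD (-0.44 ± 0.116 SE, unadjusted p = 0.000637), with 5 mice below. The immunoglobulin heavy chain gene *Ighm* had medians of 228 and 171 (-0.38, unadjusted p = 0.00187), and the helicase *Mcm8* had 90.7 and 68.3 (-0.33, unadjusted p = 0.00509), each with 5 TG_HFD mice below every TG_SD mouse. The long noncoding RNA *4921539H07Rik* (-0.58) and the processed pseudogene *Gm4887* (-0.36) had unadjusted p of 0.00136 and 0.00307.

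*Fam184b* and *Slc26a6* had fold changes that rested on few TG_SD mice. *Fam184b* had 802 and 791 normalized counts in TG_SD replicates 6 and 7 and 53.9 to 81.1 in the other 4, against 48.4 to 76.2 in TG_HFD (log2 fold change -1.85 ± 0.463 SE, unadjusted p = 0.00037). *Slc26a6*, an anion exchanger, had 2201 in TG_SD replicate 3 and 53.7 to 88.0 in the other 5, against 72.6 to 88.2 in TG_HFD (-1.79 ± 0.499 SE, unadjusted p = 0.00112). Without TG_SD replicate 3 the *Slc26a6* value was 0.28 (unadjusted p = 0.0378).

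The TG_SD and TG_HFD counts did not overlap for 3 genes. By chance the counts of a gene would separate 6 against 6 mice, in either direction, with a probability of 0.00216. The 3 genes of 13272 are a smaller share than that, so they are described by their values only. *Snx25*, a sorting nexin, and *Abcf2*, an ATP-binding cassette protein without a transmembrane part, were higher (2 genes, 0.0151%), and *Fgf13*, a regulator of sodium channels, was lower (1 gene, 0.00753%). *Snx25* had 669 to 741 normalized counts (median 682) in TG_SD and 750.3 to 840.1 (median 772) in TG_HFD (log2 fold change 0.14, unadjusted p = 0.00172). *Abcf2* had 1206 to 1233 and 1244 to 1319 (0.070, unadjusted p = 0.0394), and *Fgf13* had 3352 to 3586 and 3158 to 3333 (-0.074, unadjusted p = 0.0126). In WT hippocampus the groups did not overlap for 62 genes (0.467%) and in TG brainstem for 23 genes (0.172%).

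The remaining lists are given by their counts at the unadjusted threshold, to be read against 3.19% higher and 3.89% lower over all genes. Glycolysis and lactate genes gave 0 higher and 1 lower of 36, proteasome subunits 2 and 0 of 35, and mitochondrial ribosomal protein genes 1 and 1 of 76. Oligodendrocyte precursor markers gave 0 higher and 1 lower of 9. Complex II, nuclear subunits of complexes III and V, and markers of pericytes and of meningeal fibroblasts gave 0 in either direction. Of 13 mitochondrially encoded mRNAs 0 were higher and 1 was lower (*mt-Atp8*, log2 fold change -0.30, unadjusted p = 0.0107), and all 13 had a value below 0, with a median of -0.034. Of 37 nuclear complex I subunits 0 were higher and 1 lower, of 11 nuclear complex IV subunits 0 were higher and 2 lower (18.2%, with a positive value in 1), and of 77 cytosolic ribosomal protein genes 1 was higher and 1 lower. Lysosomal enzymes and the proton pump gave 3 higher and 0 lower of 51, including acid alpha-glucosidase *Gaa* (0.10, unadjusted p = 0.00393). Synaptic vesicle and release genes gave 3 higher and 4 lower of 49, with the active zone scaffolds *Bsn* (-0.18, unadjusted p = 0.0017) and *Pclo* (-0.14, unadjusted p = 0.0259) among the lower. Clock genes gave 2 higher and 1 lower of 24, with the repressor *Bhlhe40* higher (0.17, unadjusted p = 0.00126). Insulin, IGF and leptin signalling gave 0 higher and 2 lower of 43, with the transcription factor *Foxo1* (-0.13, unadjusted p = 0.0143) among the lower. Homologs of Parkinson disease genes gave 0 higher and 1 lower of 20 (*Vps13c*, -0.12, unadjusted p = 0.0298). In the antioxidant list 1 of 41 was higher and 2 lower, and in adult neurogenesis 2 of 12 were higher (16.7%) and 1 lower, with the microtubule regulator *Stmn1* at 0.13 (unadjusted p = 0.000535). Interneuron markers gave 0 higher and 3 lower of 19 (15.8%), with *Adarb2* at -0.16 (unadjusted p = 0.00787) and neuropeptide Y, *Npy*, at -0.13 (unadjusted p = 0.0165). Neuropeptide genes gave 2 higher and 2 lower of 22, interferon response and MHC class I genes 0 higher and 1 lower of 19, and GABA-A receptor subunits 1 higher and 0 lower of 14.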

How the data were processed

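RNA of hippocampus was sequenced as poly(A) libraries with single-end reads of 75 bases in 24 mice, and this report uses the 12 TG libraries, with 12 WT hippocampus libraries and 12 TG brainstem libraries for comparison. Per the labels and the methods of the study, the authors checked reads with FastQC 0.11.9, aligned them with STAR 2.7.9a to a mouse reference with the human transgene added, and deposited raw counts per gene in 1 table per region. The counting tool and its strand setting are not given in the sources used here. Replicates were taken as separate mice, as the methods of the study state.

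Counts were used as deposited. Within a region, genes with a mean count under 50 were dropped. The main test was edgeR's quasi-likelihood test (edgeR 4.0.16, R 4.3.3) with TMM normalization, the 4 groups of a region in 1 model and 4 surrogate variables (sva 3.50.0) as covariates, after the design of the study, which used DESeq2. Adjusted p-values are Benjamini-Hochberg values over every gene tested. Normalized counts are counts divided by the TMM library size, scaled to the mean library, without removal of the surrogate variables, so that a fold change from the model can differ from the ratio of the groups. SEs come from the fold change and its F statistic. Library measures were compared by 2-sided exact permutation tests of 6 against 6 mice, whose smallest p is 0.00216. The scripts were tested on simulated data. Gene symbols, GC content and length came from GENCODE M21 and RefSeq annotations of GRCm38, and no coordinates of the authors' build were used. Alternatives were other normalizations, filters, tools, numbers of surrogate variables, GC and length offsets, a replicate block, the TG groups alone and each library left out.

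The members and the gene lists were chosen with earlier results of these data known. Named were the DEGs, and the 10 higher and 10 lower genes of lowest p with a log2 fold change of 0.3 or more in size. Also named were the 3 genes in each direction of largest fold change among those without overlap. The 2 genes of lowest p in each list and some genes that the study names from hippocampus were added. Other list members and *Ldb2* were named after their values were seen. Values of the transgene and of some listed genes are not reported here.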

Additional observations from a re-analysis of the deposited data

Results flagged for a closer look

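For the genes named above, 198 groups of 6 mice were checked for a mouse that stands apart (Dixon's test), and 5 were found where chance would give 9.9. *Slc26a6* had 2201 normalized counts in TG_SD replicate 3, against 53.7 to 88.0 in the other 5 mice. *Cacng5* had 129.5 in TG_SD replicate 6, against 168 to 191 in the others. *Slc1a2* had 48230 in TG_HFD replicate 3, against 39220 to 40420. *Ttr* had 1833 in TG_HFD replicate 5, against 363 to 567. *Stmn1* had 3181 in TG_SD replicate 3, against 2806 to 2901.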

How the results depend on the processing

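The count of 0 DEGs between the diets in TG hippocampus held under most alternatives. It was 2 with DESeq2, 3 with a filter on the total count, 1 with a length offset, 3 in the TG groups alone and 1 with DESeq2 without surrogate variables, which was chosen after seeing the data. Leaving out 1 library gave 0 to 3, with 3 without TG_HFD replicate 6 and 1 each without TG_SD replicates 5, 6 and 7 and TG_HFD replicate 5, and, of the WT libraries that share the model, 3 without WT_HFD replicate 7 and 1 without WT_SD replicate 6. The genes called were *Ldb2*, *Utp14b*, *Rxfp1*, *Slc17a6*, *Fezf2*, *Nts* (total count filter) and *5730419F03Rik*, which was the 1 call under the length offset (log2 fold change 5.518) and changed sign between fits (4.205 in the TG groups alone, -5.831 without WT_HFD replicate 7). Genes at an unadjusted p up to 0.05 numbered 369, 541 and 610 with 0, 1 and 2 surrogate variables, 461 with a GC offset and no surrogate variables, 368 in the TG groups alone without surrogate variables and 367 with DESeq2 without them, and 764 to 1049 with 1 library left out. The cause of these differences was not tested.

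In WT hippocampus the count of DEGs was 0, and it was 3 with DESeq2, 23 and 30 with 1 and 2 surrogate variables, 4 with either other filter, 1 with the replicate block and GC offset, 17 with DESeq2 without surrogate variables and 0 to 6 with 1 library left out. For the interaction it was 0, and it was 1 with DESeq2 with or without surrogate variables, 3 with the total count filter and 0 to 3 with 1 library left out. In TG brainstem it was 1 (*5730419F03Rik*), and it was 0 with DESeq2, with 0 or 1 surrogate variable, with filterByExpr, with a GC offset and no surrogate variables, with a length offset, in the TG groups alone and with DESeq2 without surrogate variables. There it was 8 with 2 surrogate variables, 10 with the total count filter and 0 to 4 with 1 library left out.

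Of the 96 genes named, 88 had an unadjusted p up to 0.05, 46 of these also without surrogate variables and 35 in each of 28 alternative fits, which leave out TG libraries but no WT library, and 87 of the 88 kept their sign in these 28. The log2 fold change of Slc26a6 for TG_HFD against TG_SD in hippocampus ranged from -2.082 to 0.2834 with 1 library left out, and its sign turned without TG_SD replicate 3. With the replicate number as a block there were 0 DEGs and 855 genes at an unadjusted p up to 0.05, and 0 and 813 with the GC offset added. The block left 5 of 36 cholesterol genes lower, against 10 without it, and 7 of 31 fatty acid genes. The methods of the study give diets as assigned at random within litters, but the labels tie no replicate number to a litter. Deviations of same-numbered TG libraries correlated between -0.077 and 0.377, 2 of the 6 pairs were below 0, and 2 of 6 libraries correlated best with their own number, so the numbers were not taken as pairs. Depth limits genes of low count, such as *Ccn2* and *Clic6*, more than the lipid genes.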
